A study of Rattus norvegicus with 2 samples.

Results

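The genes described here are Atf4, which encodes activating transcription factor 4, and 9 genes of the amino acid response that are known as its targets. They were chosen by name, as the entries of both deposited files whose Entrez identifier belongs to the rat symbols Atf4, Asns, Psat1, Psph, Shmt2, Mthfd2, Slc3a2, Slc6a9, Chac1 and Ppp1r15a. All 10 were found among 7803 entries with a usable identifier, and none was lost to the filter on low values. RNA was sequenced from H9c2, a rat line of embryonic heart myoblasts used as a model of cardiomyocyte precursors. The treated culture was held for 12 h in serum-free DMEM with 2.5 mM phosphate, and the control culture for the same time in serum-free DMEM with 0.9 mM phosphate. Both cultures had been grown with 10% fetal bovine serum and both were without serum during the treatment, so neither library gives values for serum-fed cells. The comparison asked how a raised phosphate concentration alters the transcriptome of these cells.

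ATF4 is the main transcription factor of the integrated stress response. Kinases that sense amino acid shortage, unfolded protein in the endoplasmic reticulum, heme shortage or viral RNA phosphorylate the initiation factor eIF2, which slows general translation while the Atf4 mRNA, with its upstream reading frames, is translated more. The ATF4 protein then raises genes that make, import and load amino acids, together with genes that shut the response off. Because much of this control acts on translation, the level of Atf4 mRNA is not a measure of ATF4 protein, which was not measured here.

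Each phosphate level had 1 library, so no value below has a replicate error and no test between the conditions was possible. Levels are in FPKM, a fragment count corrected for transcript length and for the size of the library, which allows genes to be compared with each other. The number of reads behind a value is unknown. A gene was called measured at a mean of at least 1 FPKM over both libraries, which 4366 genes reached. The log2 ratio is log2((high phosphate FPKM + 1)/(control FPKM + 1)), and the added 1 makes the difference of low genes look smaller than it is. In cells of 1 culture, fewer cells of a kind and less RNA per cell cannot be told apart.

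Over all entries the FPKM summed to 346857 in the high phosphate and 307622 in the control library. Desmin (Des), a muscle intermediate filament, was listed at 153 FPKM in high phosphate and 129 FPKM in control. The myogenic factors Myod1 and Myog had 1.59 and 0.06 FPKM in high phosphate and 6.11 and 0.13 FPKM in control. The muscle markers (7 of 13) summed to 2808 FPKM in high phosphate and 1783 FPKM in control, mostly Acta2, at 2651 FPKM in high phosphate and 1647 FPKM in control. The listed cardiomyocyte markers (3 of 10) were Myh7, Ryr2 and Nppa, and the others have no value here. Myh7 and Ryr2 were at 0 in both libraries, and Nppa at 0.23 FPKM in high phosphate and 0.21 FPKM in control. The listed endothelial markers (4 of 6) summed to 0.36 FPKM in high phosphate and 0.08 FPKM in control, and the leukocyte markers (3 of 6) to 1.47 FPKM in high phosphate and 1.06 FPKM in control. The epithelial markers (4 of 6) summed to 247 FPKM in high phosphate and 140.0 FPKM in control, nearly all of it Krt8. The fibroblast markers (8 of 9) summed to 4451 FPKM in high phosphate and 4046 FPKM in control. Most of that sum was S100a4, at 3249 FPKM in high phosphate and 3291 FPKM in control. Col3a1 was listed at 844 FPKM in high phosphate and 489 FPKM in control, and Thy1, Lum, Dcn and Col1a1 were also higher in high phosphate. Pdgfrb was listed at 24.4 FPKM in high phosphate and 24.7 FPKM in control, and Pdgfra at 0 in both libraries. The part of these marker differences in the results below was not tested.

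ATF4 dimers with C/EBP proteins bind a composite element whose core is TGATGNAA. RefSeq promoter windows of the assembly GRCr8, from 250 bases before to 50 bases after each annotated start, were searched for TGATGNAA and for TGATGCAA, a form contained in it, on both strands. All 10 genes matched a window, Slc3a2 with 2 windows. Chac1 was the 1 gene of the 10 with a match. Of all 33469 windows, 3.98% held TGATGNAA and 0.795% held TGATGCAA. For windows of measured genes the shares were 1.91% and 0.637%. Absence of a match says only that these letters are not in this window.

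The 250 bases before the annotated Chac1 start are shown because they hold this match, which lies on the opposite strand and begins 167 bases before the start. They span chr3:126795881-126796130 on the plus strand of GRCr8, and capitals mark the match.
Chac1: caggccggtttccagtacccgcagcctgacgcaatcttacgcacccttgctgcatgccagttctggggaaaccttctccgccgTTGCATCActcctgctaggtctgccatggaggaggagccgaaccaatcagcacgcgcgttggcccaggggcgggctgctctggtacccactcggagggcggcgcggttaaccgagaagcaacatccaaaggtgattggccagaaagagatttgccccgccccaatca

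The same core stood in several tRNA synthetase and enzyme promoters of the pathway. For comparison with Chac1, the surroundings of the match are shown for 3 synthetases and 2 amino acid enzymes, on the strand of the gene and with the match in capitals. They lie at chr19:55908354-55908393 (plus strand) for Aars1, chr17:15193653-15193692 (minus strand) for Iars1, chr7:65023754-65023786 (minus strand) for Mars1, chr1:252330015-252330054 (minus strand) for Got1 and chr15:32997603-32997637 (plus strand) for Pck2, all in GRCr8.
Aars1: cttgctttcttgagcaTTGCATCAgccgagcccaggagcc
Iars1: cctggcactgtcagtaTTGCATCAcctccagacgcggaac
Mars1: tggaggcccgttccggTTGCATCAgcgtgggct
Got1: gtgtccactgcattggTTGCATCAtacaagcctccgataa
Pck2: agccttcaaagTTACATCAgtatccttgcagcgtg

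In the high phosphate library the mRNA of Atf4 and its amino acid response genes stood close to the control level, with small differences in both directions. By the rule of size used in place of a test, at least 2-fold on the log2 scale with 1 added, 0 of the 10 genes were higher and 0 were lower. Among all measured genes 1.76% were at least 2-fold higher and 0.87% at least 2-fold lower, so a count of 0 among 10 genes is close to this background and is not a result about the set. At 1.5-fold, 0 of the 10 genes were past the threshold, against 10.6% of all measured genes. The largest listed ratio either way was 1.38. Of the 10 genes, 4 had a log2 ratio above 0 and 6 below 0, near the 50.5% and 49.4% of all measured genes. Their median log2 ratio was -0.11, beside 0.00 for all measured genes. All 10 log2 ratios lay within the central 95% of genes in the same of 5 equal bins of mean FPKM.

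**Figure D1:**
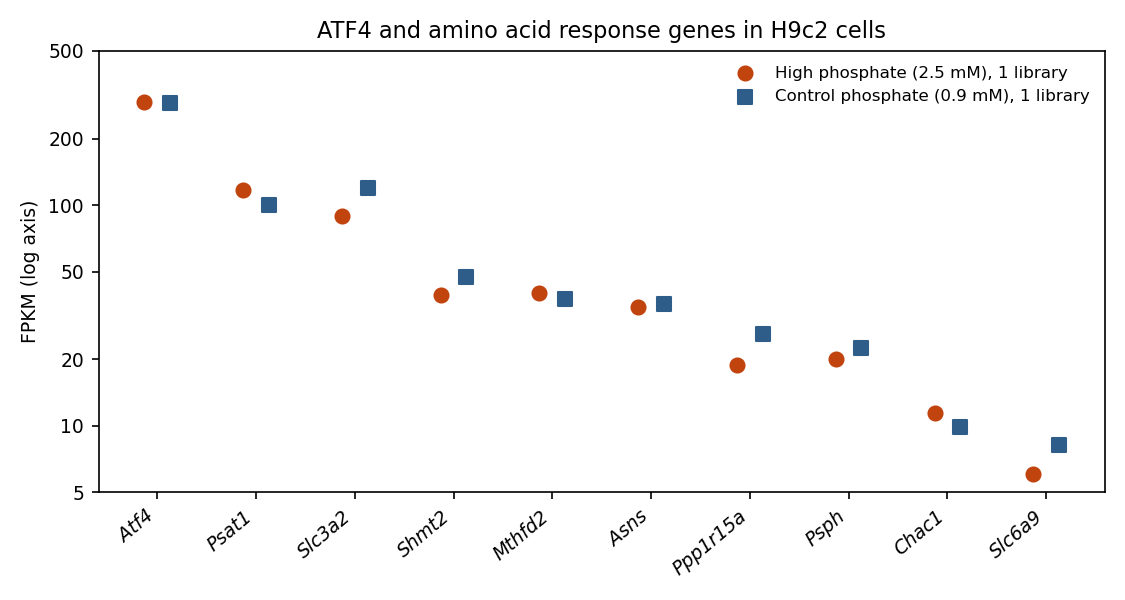
FPKM (log axis) of the 10 genes in the high phosphate library (circles, 2.5 mM) and the control library (squares, 0.9 mM), ordered by mean FPKM, with 1 library per condition and no error bars. Atf4 stands highest with nearly equal values, and Ppp1r15a, Slc3a2 and Slc6a9 show the widest gaps, each lower in high phosphate.

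Atf4 (Entrez 79255) was listed at 294 FPKM in high phosphate and 289.7 FPKM in control, a log2 ratio of 0.02. The libraries differed by 1.42% of the control value. It was the most abundant of the 10 genes, at percentile 96.4 of mean FPKM among measured genes. Its log2 ratio stood at percentile 52.2 of all log2 ratios, near the middle. The sign of so small a difference depends on scaling: the log2 ratio was -0.15 with both libraries rescaled to equal sums over all entries and -0.07 with equal sums leaving out the 100 most abundant entries.

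The enzymes of serine synthesis and the mitochondrial one-carbon cycle did not share a direction. Psat1 (293820), the aminotransferase of the middle step of serine synthesis from glucose, was listed at 117 FPKM in high phosphate and 99.8 FPKM in control. Its log2 ratio of 0.23 was the highest of the 10 genes and stood at percentile 75.2 of all measured genes. Psph (304429), the phosphatase that completes serine synthesis, was listed at 20.0 FPKM in high phosphate and 22.6 FPKM in control, a log2 ratio of -0.17. Psat1 was thus above and Psph below its control value as deposited, and both signs were the same under every scaling tried.

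Shmt2 (299857), the mitochondrial enzyme that splits serine into glycine and a one-carbon unit, was listed at 39.2 FPKM in high phosphate and 47.3 FPKM in control, a log2 ratio of -0.27 at percentile 16.3. Mthfd2 (680308), the mitochondrial dehydrogenase and cyclohydrolase that takes that unit on, was listed at 40.1 FPKM in high phosphate and 37.4 FPKM in control. Its log2 ratio was 0.10 as deposited and -0.07 with equal library sums. Shmt2 therefore stood above Mthfd2 in the control library and slightly below it in the high phosphate library. Asns (25612), which makes asparagine from aspartate and glutamine, was listed at 34.5 FPKM in high phosphate and 35.65 FPKM in control, with a log2 ratio of -0.05.

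Both transport genes were lower in high phosphate. Slc3a2 (50567), the heavy chain that carries the light chains of several amino acid exchangers to the cell surface, was listed at 89.6 FPKM in high phosphate and 119 FPKM in control. Its log2 ratio of -0.41 lay just inside the lower limit of -0.42 for the genes in the highest of 5 equal bins of mean FPKM. Slc6a9 (116509), a sodium-dependent glycine transporter, was listed at 6.04 FPKM in high phosphate and 8.2 FPKM in control, a log2 ratio of -0.39 at percentile 8.91. It was the least abundant of the 10 genes, and at its level the central 95% ran from -0.77 to 0.97.

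The feedback and output genes stood on opposite sides. Ppp1r15a (171071) encodes the inducible subunit that brings protein phosphatase to eIF2 and ends the response. It was listed at 18.9 FPKM in high phosphate and 26.2 FPKM in control. Its log2 ratio of -0.45, at percentile 6.28, was the lowest of the 10 genes and lay inside the lower limit of -0.49 for its bin. Chac1 (362196), a cyclotransferase that degrades glutathione and is a sensitive readout of ATF4 activity in other cells, was listed at 11.45 FPKM in high phosphate and 9.9 FPKM in control. Its log2 ratio was 0.19 as deposited and 0.03 with equal library sums.

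The order of mean levels was Atf4, Psat1, Slc3a2, Shmt2, Mthfd2, Asns, Ppp1r15a, Psph, Chac1 and Slc6a9, a 41.0-fold span. Without replicates it cannot be said which neighbours in this order differ beyond their spread. From Psat1 to Ppp1r15a the log2 ratios spanned 0.67. Absolute log2 ratios larger than that of Ppp1r15a were held by 17.4% of measured genes. With 2 libraries every pair of genes correlates perfectly, so genes of similar pattern were not sought. In the GRCr8 annotation the spans of Shmt2 and Slc6a9 overlap 1 other gene each, Ndufa4l2 and Ccdc24, which were not analysed here. The sources used here do not say how reads shared between overlapping genes were counted.

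**Figure D2:**
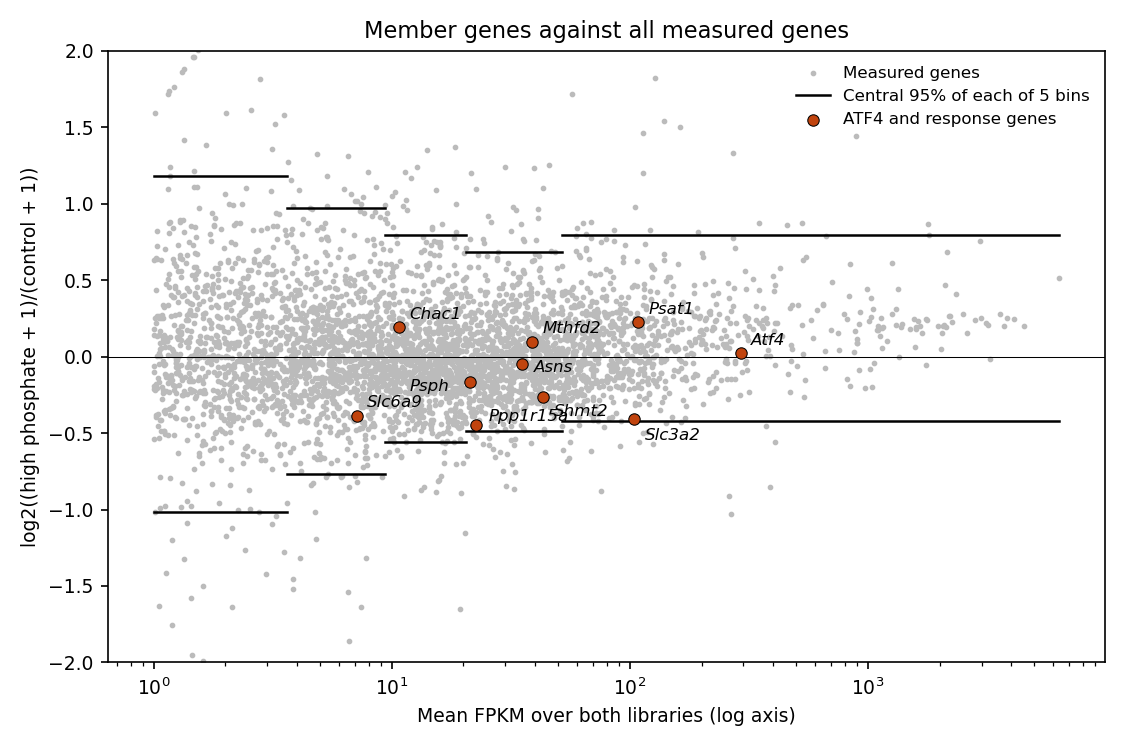
log2 ratio (high phosphate over control, 1 added to each FPKM) against mean FPKM over both libraries (log axis) for all measured genes in grey and the 10 genes in colour, with lines at the central 95% of each of 5 equal bins of mean FPKM. The 10 genes lie between the lines, with Slc3a2 and Ppp1r15a closest to the lower ones, and 17 measured genes fall outside the plotted range of -2 to 2.

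The scaling of the libraries decided the signs of the smallest differences. Making the library sums equal moved the median over all measured genes to -0.15 on the log2 scale. On that scale 8 of the 10 genes were below 0 and 2, Psat1 and Chac1, above it, near the 67.8% below 0 and 32.2% above 0 of all measured genes on that scale. The median of the 10 was -0.27. Relative to the median of all measured genes, the median of the 10 was -0.11 as deposited and -0.12 after this rescaling. Psat1 and Chac1 were above 0 and Asns, Psph, Shmt2, Slc6a9, Slc3a2 and Ppp1r15a below 0 under each of the 5 scalings, the deposited one included.

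**Figure D3:**
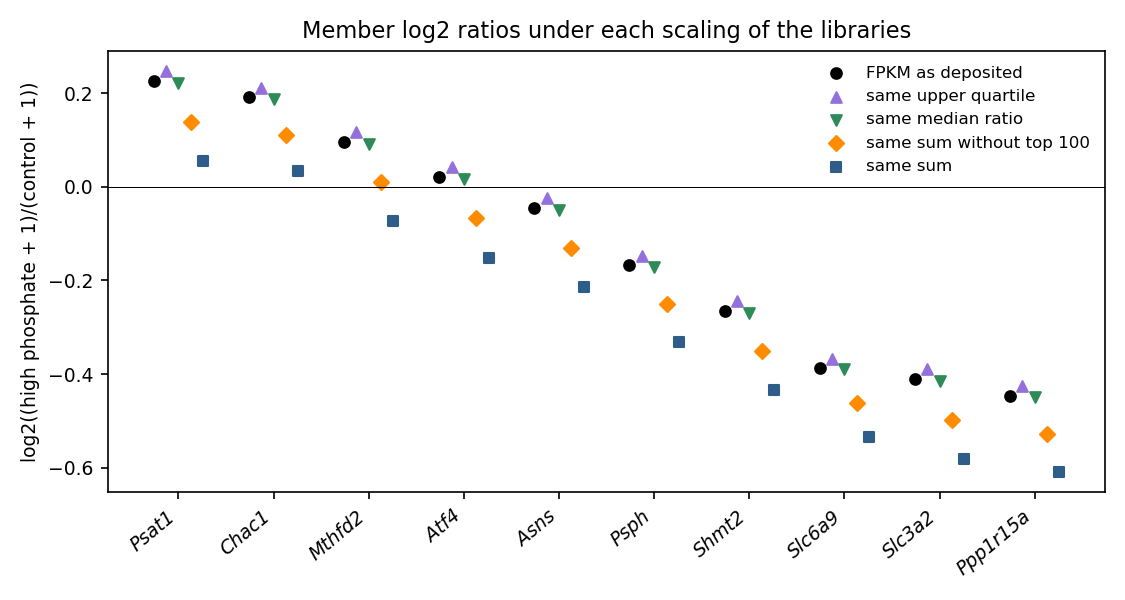
log2 ratio (high phosphate over control, 1 added) of each of the 10 genes under the deposited scale and 4 rescalings of the libraries, with genes ordered by the deposited value. Every gene is lowest under the same sum, and Atf4 and Mthfd2 are the genes whose points lie on both sides of 0.

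Beyond the 10 genes, 10 lists of related genes were described in the same way, with counts as deposited. In each list some genes matched no entry. The list of eIF2 kinases, phosphatase subunits, eIF2 and eIF2B had 14 of its 23 genes among the entries. Eif2ak1 was the eIF2 kinase measured, and most measured genes of this list were lower. Of 13 measured genes, 11 had a log2 ratio below 0 and 2 above, with a median of -0.14, whereas 49.4% of all measured genes were below 0. With both sums made equal, all 13 were below 0, as were 67.8% of all measured genes. Eif2a, a factor for initiator tRNA delivery, was listed at 8.52 FPKM in high phosphate and 10.9 FPKM in control, and the phosphatase catalytic subunit Ppp1cb at 10.5 FPKM in high phosphate and 13.3 FPKM in control. At the upper end, the eIF2 subunit Eif2s2 was listed at 105 FPKM in high phosphate and 100.65 FPKM in control, and the catalytic subunit Ppp1ca at 305 FPKM in high phosphate and 299 FPKM in control. None was 2-fold apart.

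Few transcription factors of the response were measured. Atf5, an ATF4 relative that is also under translational control, was listed at 249 FPKM in high phosphate and 211 FPKM in control, a log2 ratio of 0.24. Cebpd, a C/EBP protein, was listed at 11.5 FPKM in high phosphate and 8.86 FPKM in control, and Jun at 72.2 FPKM in high phosphate and 80.8 FPKM in control. Atf3, a stress-induced repressor, was low in both libraries, at 1.04 FPKM in high phosphate and 1.78 FPKM in control. Ddit3, which encodes the pro-apoptotic factor CHOP, was below the filter at 0.43 FPKM in high phosphate and 0.72 FPKM in control. Trib3, the pseudokinase that restrains ATF4, matched no entry, so its expression was not analysed here. Of these 4 measured genes 2 were above and 2 below 0 (median 0.04, mean -0.01).

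Other measured enzymes of serine and one-carbon metabolism had log2 ratios from -0.69 to 0.67. Phgdh, which opens serine synthesis ahead of Psat1 and Psph, was listed at 36.35 FPKM in high phosphate and 24.1 FPKM in control, a log2 ratio of 0.57. The successive steps Phgdh, Psat1 and Psph thus had log2 ratios of 0.57, 0.23 and -0.17. Mthfd1l, the mitochondrial formate synthetase downstream of Mthfd2, was listed at 17.95 FPKM in high phosphate and 10.9 FPKM in control, a log2 ratio of 0.67. The mitochondrial steps Shmt2, Mthfd2 and Mthfd1l had log2 ratios of -0.27, 0.10 and 0.67, in the order of the pathway. Mthfd1l and Phgdh had the highest log2 ratios of this list, and Mthfd2l, also in it, had -0.02. With 1 library per phosphate level, a trend along either pathway cannot be read from these values. Mthfd1, the cytosolic enzyme, was listed at 27.7 FPKM in high phosphate and 30.8 FPKM in control, and the serine racemase gene Srr at 0.98 FPKM in high phosphate and 2.2 FPKM in control. Of 9 measured genes of the list 4 were above and 5 below 0, with a median of -0.02 and a mean of 0.05. With equal library sums 3 were above and 6 below 0, where 67.8% of all measured genes were below 0. None was 2-fold apart with the added 1, while the listed FPKM of Srr were more than 2-fold apart.

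Enzymes of other amino acids were divided evenly as deposited, with 4 of 8 measured genes above and 4 below 0 and a median of 0.00. With equal library sums 3 were above and 5 below 0, where 67.8% of all measured genes were below 0. Pck2, the mitochondrial phosphoenolpyruvate carboxykinase and an ATF4 target, was listed at 24.2 FPKM in high phosphate and 18.2 FPKM in control. Glutamine synthetase (Glul) was listed at 75.6 FPKM in high phosphate and 59.9 FPKM in control. The proline synthesis enzyme Pycr3 was toward the other end, with 37.9 FPKM in high phosphate and 40.8 FPKM in control.

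Amino acid transporters apart from Slc3a2 and Slc6a9 were below 0 in 6 of 8 measured cases, both as deposited and with equal sums. Of all measured genes 49.4% and 67.8% were below 0 on those scales. The median log2 ratio of the list was -0.28 as deposited and -0.37 with equal sums. Slc38a7, a lysosomal glutamine exporter, was listed at 3.62 FPKM in high phosphate and 6.97 FPKM in control, a log2 ratio of -0.79. Slc36a1, a lysosomal proton-coupled transporter, was listed at 1.56 FPKM in high phosphate and 2.61 FPKM in control. The glutamine transporter Slc1a5 was listed at 19.8 FPKM in high phosphate and 14.6 FPKM in control, and the lysosomal arginine sensor Slc38a9 at 1.1 FPKM in high phosphate and 0.9 FPKM in control. Slc7a11, the cystine light chain that pairs with Slc3a2, was below the filter at 0.86 FPKM in high phosphate and 1.02 FPKM in control. Its counterpart for large neutral amino acids, Slc7a5, matched no entry, so its expression was not analysed here. Without the filter on low values the median of the list was -0.01, with 6 more genes whose mean was under 1 FPKM.

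Cytosolic aminoacyl-tRNA synthetases and their partners, many of them known ATF4 targets, were below 0 in 13 of 16 measured cases and in 15 of 16 with equal library sums, against 49.4% and 67.8% of all measured genes on those scales. The median log2 ratio was -0.18. Sars1, the seryl enzyme, was listed at 1.42 FPKM in high phosphate and 2.36 FPKM in control, and the complex scaffold Aimp1 at 59.7 FPKM in high phosphate and 79.9 FPKM in control. The lysyl enzyme Kars1 was listed at 13.4 FPKM in high phosphate and 9.65 FPKM in control, and the glutaminyl enzyme Qars1 at 54.4 FPKM in high phosphate and 53.6 FPKM in control, where Qars1 was below 0 on the log2 scale with equal sums. The mitochondrial synthetases were below 0 in 5 of 6 cases on both scales, with a median of -0.10 as deposited. Among them Yars2 was listed at 7.48 FPKM in high phosphate and 10.9 FPKM in control, Sars2 at 6.04 FPKM in high phosphate and 8.72 FPKM in control and Pars2 at 9.12 FPKM in high phosphate and 7.68 FPKM in control.

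Other stress genes placed downstream of ATF4 were above 0 in 11 of 14 measured cases as deposited, with a median of 0.17, and in 7 of 14 with equal sums, with a median of 0.02. Of all measured genes 50.5% were above 0 as deposited and 32.2% with equal sums. Ddit4, an inhibitor of mTORC1 that also responds to low oxygen, was listed at 27.05 FPKM in high phosphate and 9.83 FPKM in control. It was the 1 measured gene of all 10 lists past 2-fold with the added 1. Of all measured genes 1.76% were at least 2-fold higher and 0.87% at least 2-fold lower. The count of 1 is therefore not a result about the lists. Eif4ebp1, a repressor of cap-dependent translation, was listed at 145 FPKM in high phosphate and 86.4 FPKM in control. The autophagy receptor Sqstm1 was listed at 151 FPKM in high phosphate and 184 FPKM in control and the mitochondrial chaperone Hspa9 at 54.45 FPKM in high phosphate and 63.9 FPKM in control. Sesn2 matched no entry, so its expression was not analysed here.

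Among genes of glutathione turnover, the process that Chac1 serves, 4 of 5 measured genes were above 0 on both scales. All measured genes were above 0 in 50.5% of cases as deposited and in 32.2% with equal library sums. The median of the list was 0.36 as deposited and 0.21 with equal library sums. Ggt5, a gamma-glutamyl hydrolase of the cell surface, was listed at 1.99 FPKM in high phosphate and 0.7 FPKM in control, Oplah at 2.76 FPKM in high phosphate and 1.52 FPKM in control and Ggt1 at 2.94 FPKM in high phosphate and 2.12 FPKM in control. The aminopeptidase Lap3 was listed at 54.8 FPKM in high phosphate and 60.8 FPKM in control. Without the added 1, Ggt5 was past 2-fold. The genes above 0 in this list had low values, at most 9.22 FPKM in high phosphate and 6.98 FPKM in control.

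The chaperone arm of the unfolded protein response differed from the 10 genes in its values. Of its 14 measured genes 11 were above 0 as deposited, with a median of 0.36, and 10 with equal sums, with a median of 0.19. The shares above 0 over all measured genes were 50.5% as deposited and 32.2% with equal sums. Hsp90b1 was listed at 685 FPKM in high phosphate and 374 FPKM in control, and Pdia6 at 450.1 FPKM in high phosphate and 245 FPKM in control. Both lay in the highest of 5 equal bins of mean FPKM, where the median log2 ratio over all genes was 0.10. In the other bins that median ran from -0.03 to 0.00. Derl2 and Syvn1, of the degradation pathway, were listed at 8.5 and 9.47 FPKM in high phosphate and 9.66 FPKM each in control. The difference between this list and the 10 genes was not tested.

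**Figure D4:**
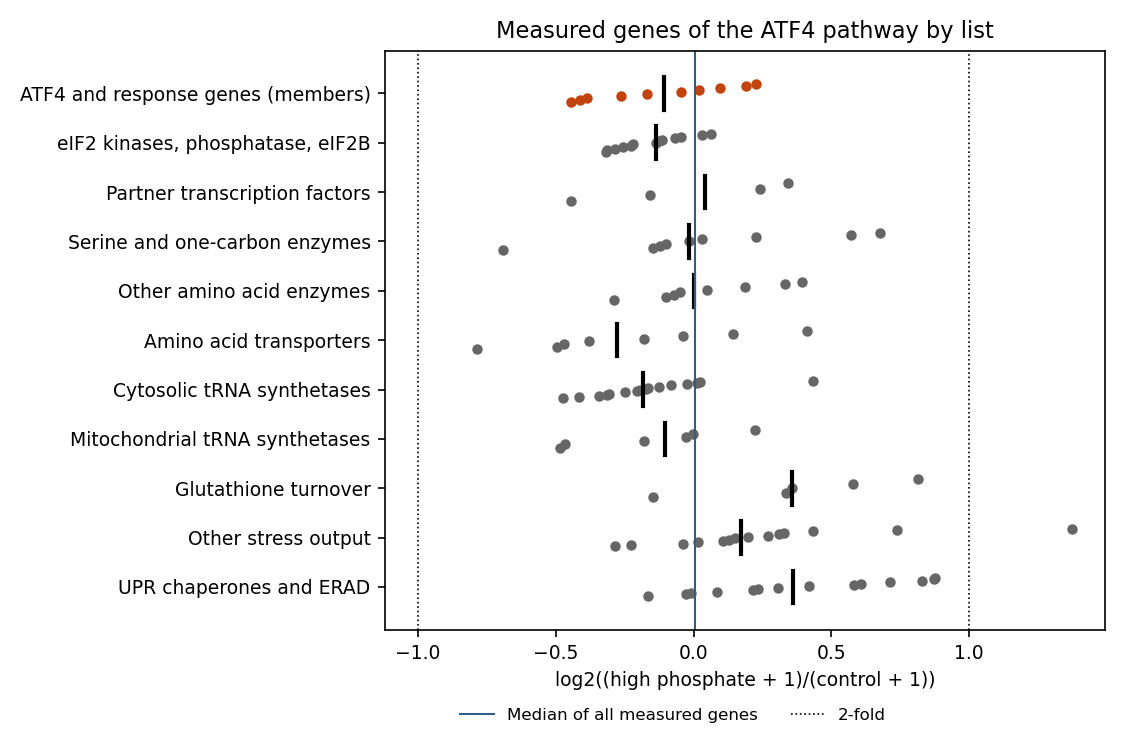
log2 ratio (high phosphate over control, 1 added) of each measured gene, by list, with the 10 genes on top, a black bar at each list's median, a blue line at the median of all measured genes and dotted lines at 2-fold. eIF2-related genes, transporters and synthetases lie mostly left of the blue line, chaperones mostly right of it, and Ddit4 is the single point past 2-fold.

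Genes with the promoter letters lay on both sides of 0. Of the cytosolic synthetase genes with a window, 7 of 21 (33.3%) held TGATGCAA, against 1 of the 10 genes and 0 of 18 in the chaperone list. These counts are per gene, measured or not, with matches before or after the start. Counted per window, 0.795% of all windows and 0.637% of those of measured genes held TGATGCAA. In all, 11 measured genes of the lists and the 10 genes held TGATGNAA, 4 of them above and 7 below 0 as deposited. Of all measured genes 50.5% were above and 49.4% below 0 on that scale. With equal library sums Eif2s2, at 0.06 as deposited, was also below 0, at -0.11, as were 67.8% of all measured genes. Those with the core shown above had log2 ratios of 0.39 for Pck2, 0.19 for Chac1, 0.19 for Got1, -0.02 for Aars1, -0.13 for Iars1 and -0.20 for Mars1. Over all measured genes with a window, the 70 with TGATGNAA had a median log2 ratio of -0.06 with 27 above and 43 below 0, and the 3539 without it a median of 0.00. The 23 with TGATGCAA had a median of -0.02, with 11 above and 12 below 0.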

How the data were processed

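The authors deposited FPKM values, 1 file per library, rounded to 2 decimals, as the values show and with the unit named per the file headers. Per the submitters' processing notes, TopHat2 2.1.1, Cufflinks 2.2.1, Cuffdiff and bcl2fastq were used with build Rnor_6.0, with no role stated for each. The sources used here do not give the annotation, strand setting or any scaling between libraries. Of 8039 entries, 236 without a usable identifier were left out, and 7746 of the other 7803 matched a symbol in the RefSeq table of GRCr8, used for names, overlaps and promoter windows only. Log2 ratios, ranks, 5 equal bins of mean FPKM and counts were computed over all 4366 measured genes with Python 3.11.15, numpy 2.4.6 and pandas 2.3.3. The rule of size was also run on simulated data, with changes set larger than its threshold and noise scaled to these libraries. Recovery was scored only for genes well above the filter. That run therefore gives no error rate for 2-fold changes, low genes or differences between cultures. With 1 library per condition no test was made, and depth is unknown.

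The members and lists were chosen with earlier results of these data known. Named beside the 10 genes were, in each list, the 2 highest and 2 lowest measured log2 ratios, any gene past 2-fold, and 7 well-known genes of the response. Some genes this rule selects are not reported. Alternatives were pseudocounts of 0, 0.1 and 0.5, 4 rescalings, other filters (none, or 5 FPKM) and thresholds of 1.5-fold and 3-fold.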

Additional observations from a re-analysis of the deposited data

How the results depend on the processing

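The count of 0 members past the threshold held under all 11 alternatives. The median log2 ratio of the 10 genes moved from -0.11 by more than 0.1 under 1 alternative, to -0.27 with the libraries rescaled to the same sum, where the median of all measured genes was -0.15. Of the 10 genes, Atf4 changed sign under 2 of 9 alternatives and Mthfd2 under 1 of 9. The count of all measured genes at least 2-fold higher and lower, 77 and 38 in the main setting, was 151 and 62 with a pseudocount of 0.1, 155 and 62 with none, 41 and 8 from a mean of 5 FPKM, 315 and 147 at 1.5-fold and 25 and 13 at 3-fold. Rescaling to the same sum gave 54 and 56. Of 9 lists with at least 5 measured genes, 5 had a median below 0. From a mean of 5 FPKM this was 2 of 6 lists, since fewer genes were left. No paired analysis was possible because each condition had 1 library, and leaving out a library was not possible for the same reason. With no counts, the depth that limits the low genes, such as Atf3, Srr and Slc36a1, cannot be given.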
